A study of Mus musculus with 2 samples.

Results

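The genes described here encode the catalytic subunit of telomerase (Tert), the shelterin complex that coats chromosome ends (Terf1, Terf2, Terf2ip, Tinf2, Acd, Pot1a and Pot1b) and the helicase Rtel1, which unwinds looped telomere ends. They are 9 of the 21225 mouse protein-coding genes that had a replication timing score. The genes were taken as a named list whose rule uses no score, though the list was chosen with earlier results of these data known. Each gene was given the score at the position nearest to its midpoint, which lay 0.173 to 3.25 kb away. The study sequenced 1 library from early S phase and 1 from late S phase of 46C mouse embryonic stem cells (strain 129P2/Ola), kept in medium with leukemia inhibitory factor. The cells of both fractions took up 50 µM of the thymidine analogue bromodeoxyuridine (BrdU) for 2 h and were sorted by DNA content, and the labels tell the early and late groups apart by their stage of S phase alone. BrdU-labelled DNA from 10000 cells was precipitated in each fraction, amplified and sequenced on the Ion Torrent platform. The question was which chromosome regions replicate early and which late in these cells.

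The authors joined both libraries in 1 score per position, smoothed over 300 kb. Positive values are read here as early replication, from the order in which the deposited table names early and late, and every early or late statement below would turn if that order were the other way. There were 0 replicate libraries and the read depth is unknown, so the values carry no test and no experimental error. Neither the zero point nor the log base of the values is stated, and they are not read as folds. The score describes DNA replication and not RNA, so the cell type named in the labels was not checked against expressed markers. The only spread available is the range of the score over neighbouring positions, which share reads through the smoothing.

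Telomeres are repeats at the ends of linear chromosomes that shorten when DNA is copied, and telomerase restores them by copying an RNA template. Shelterin hides these ends from DNA damage signalling and governs the access of telomerase. Embryonic stem cells keep telomerase active, unlike most cells of the adult body. Early replication is typical of gene-dense, transcribed chromatin, and late replication of gene-poor, silent chromatin.

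Most of the telomerase and shelterin genes had early scores, and the clear exception was Pot1a, which encodes a protein that binds single-stranded telomere DNA. The score was above 0 at 7 of the 9 genes, against a background of 73.5% of protein-coding genes above 0. Their median was 1.35 and that of all protein-coding genes was 1.02, and 5 of the 9 lay above the latter. The share and the median of so few genes were near those of protein-coding genes at large, so neither sets the list apart. Below 0 were 2 genes, against a background of 26.5%, Pot1a at -1.23 and Pot1b at -0.30. The side of Pot1b is not resolved, since it was at 0.0073 with 0 at the autosomal median and at 0.21 as a mean within 500 kb. Mice carry this pair of related genes where humans have a single POT1 gene.

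**Figure D1:**
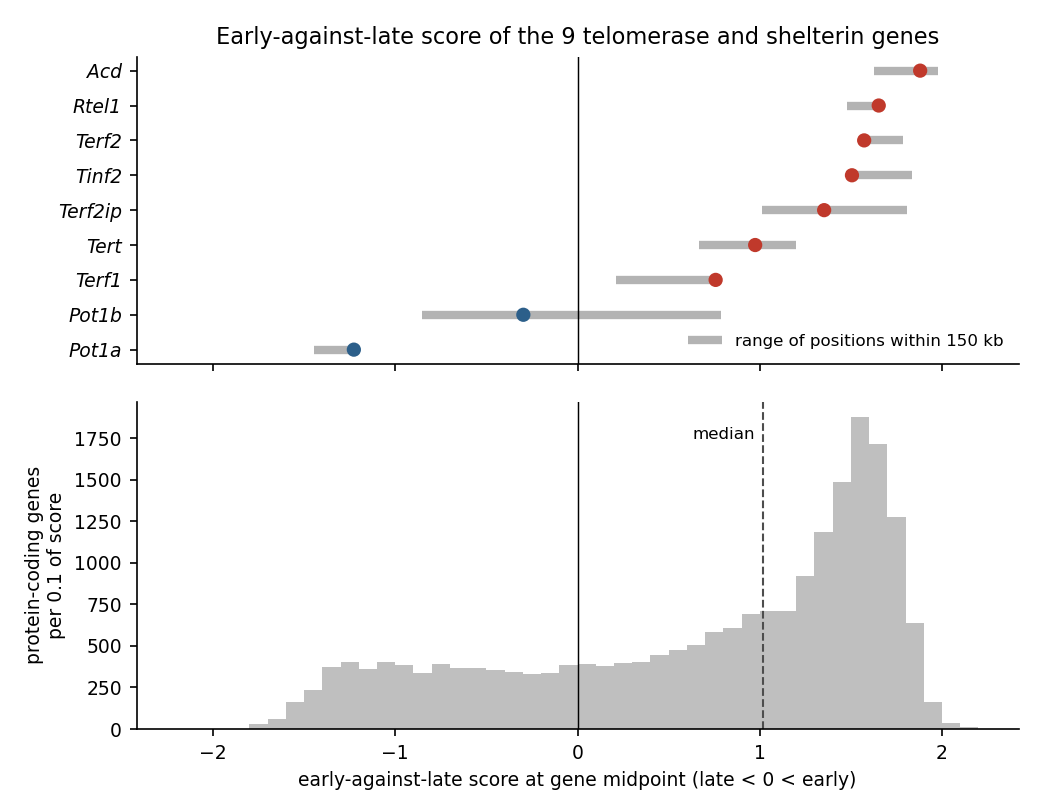
Upper panel: score at the midpoint of each gene (points; red above 0, blue below) with the range of all positions within 150 kb (grey bars). Lower panel: number of protein-coding genes per bin of 0.1 of the score, with their median of 1.02 as a dashed line. Of the genes shown, 7 lie to the right of 0, and the bar of Pot1b crosses 0.

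The order from early to late was Acd (1.88), Rtel1 (1.65), Terf2 (1.57), Tinf2 (1.51), Terf2ip (1.35), Tert (0.97), Terf1 (0.76), Pot1b (-0.30) and Pot1a (-1.23). Without replicates the only yardstick for these steps is the range of the score within 150 kb of each gene. By that yardstick 7 of the 8 neighbouring pairs in the order overlapped, among them Acd with Rtel1 and Terf1 with Pot1b. The pair that did not overlap was Pot1b, whose lowest nearby value was -0.85, and Pot1a, whose highest was -1.23. The order between neighbouring early genes is therefore not resolved. Among neighbouring pairs only the local ranges of Pot1a and Pot1b stood apart, although that of Pot1b was itself wide, reaching up to 0.79. Genes farther apart in the order could also have separate ranges. The lowest value near Acd was 1.62, for example, and the highest near Terf1 was 0.77.

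The promoters of the latest gene, of its paralogue and of the earliest gene are shown, a choice made after the data were seen. The CpG content of these promoters does not follow the order of the scores, and its relation to timing was not tested. Each is the stretch of 250 bases before the most upstream start site in the promoter table from RefSeq (build GRCm38.p6), written 5′ to 3′ on the strand of the gene, with every CpG in capitals. This start lay 59 bases inside the gene as the gene table bounds it for Pot1a, 11 bases inside for Pot1b and at the gene's edge for Acd. They lie at chr6:25809219-25809468 for Pot1a, chr17:55712637-55712886 for Pot1b and chr8:105701229-105701478 for Acd, all on the minus strand.
Pot1a: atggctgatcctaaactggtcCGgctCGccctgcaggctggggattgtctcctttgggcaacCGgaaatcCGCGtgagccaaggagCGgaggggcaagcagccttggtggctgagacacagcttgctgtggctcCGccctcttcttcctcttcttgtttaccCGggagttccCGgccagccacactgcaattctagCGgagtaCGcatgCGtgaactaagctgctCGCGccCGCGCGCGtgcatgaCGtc
Pot1b: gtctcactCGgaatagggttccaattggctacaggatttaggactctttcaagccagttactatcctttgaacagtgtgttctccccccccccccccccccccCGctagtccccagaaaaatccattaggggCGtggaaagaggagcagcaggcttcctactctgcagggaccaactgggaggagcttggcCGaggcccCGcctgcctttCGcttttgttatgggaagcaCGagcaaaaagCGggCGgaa
Acd: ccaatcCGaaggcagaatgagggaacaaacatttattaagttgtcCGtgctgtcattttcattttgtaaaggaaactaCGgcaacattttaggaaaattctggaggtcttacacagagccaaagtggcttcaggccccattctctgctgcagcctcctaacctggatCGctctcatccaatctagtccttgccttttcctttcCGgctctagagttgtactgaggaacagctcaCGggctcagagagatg
Pot1a, with the lowest score of the list, had 19 CpGs in this stretch, more than 73.8% of the 17030 protein-coding promoters compared. Pot1b had 9 and Acd, with the highest score, had 6. Across the genome the median was 13 CpGs (quartiles 5 and 21) for the 12480 promoters of genes scoring above 0. It was 3 (quartiles 1 and 10) for the 4550 promoters of genes below 0. The promoter of Pot1a thus held more CpGs than the upper quartile of genes that scored late. That of Acd held fewer than the median of genes that scored early, but lay within their quartiles. Of the 9 genes 8 matched the promoter table, Terf1 being the exception, and their median was 11.5 CpGs, from 6 in Acd to 20 in Tinf2. Between these, Rtel1 had 13, Tert 12, Terf2 11 and Terf2ip 9, and all of them scored early, as Tinf2 did. The start of Tinf2 lay 342 bases inside the gene, so its whole stretch of 250 bases lay within the gene.

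Tert, the reverse transcriptase that sets telomerase activity, lay in a moderately early domain with late DNA on both sides. Its score was 0.97 (chromosome 13, 73626911 to 73649843, plus strand), higher than at 48.6% of protein-coding genes. It was 0.90 at the start of the gene and 1.04 at the far end, and within 150 kb the score ranged from 0.67 to 1.20. The early run that holds Tert was 1.62 Mb long, from 73174339 to 74796190, with 29 protein-coding genes and a highest value of 1.26. Tert sat 0.464 Mb from its nearer end. On the lower-coordinate side the profile fell to -1.76 at 1.46 Mb from Tert, and on the other side it changed by -2.22 within 300 kb, the steepest change near any of the 9 genes. Among genes within 2 Mb, the lowest score belonged to the homeobox gene Irx1 (-1.55) and the highest to Sdha (1.26), which encodes a subunit of mitochondrial complex II. Of 31 such neighbours 28 lay above 0, and 44.1% of positions in the window did, close to the 43.1% of all positions in the genome. That closeness depends on the width, since within 1 Mb of Tert the share was 73.1%.

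**Figure D2:**
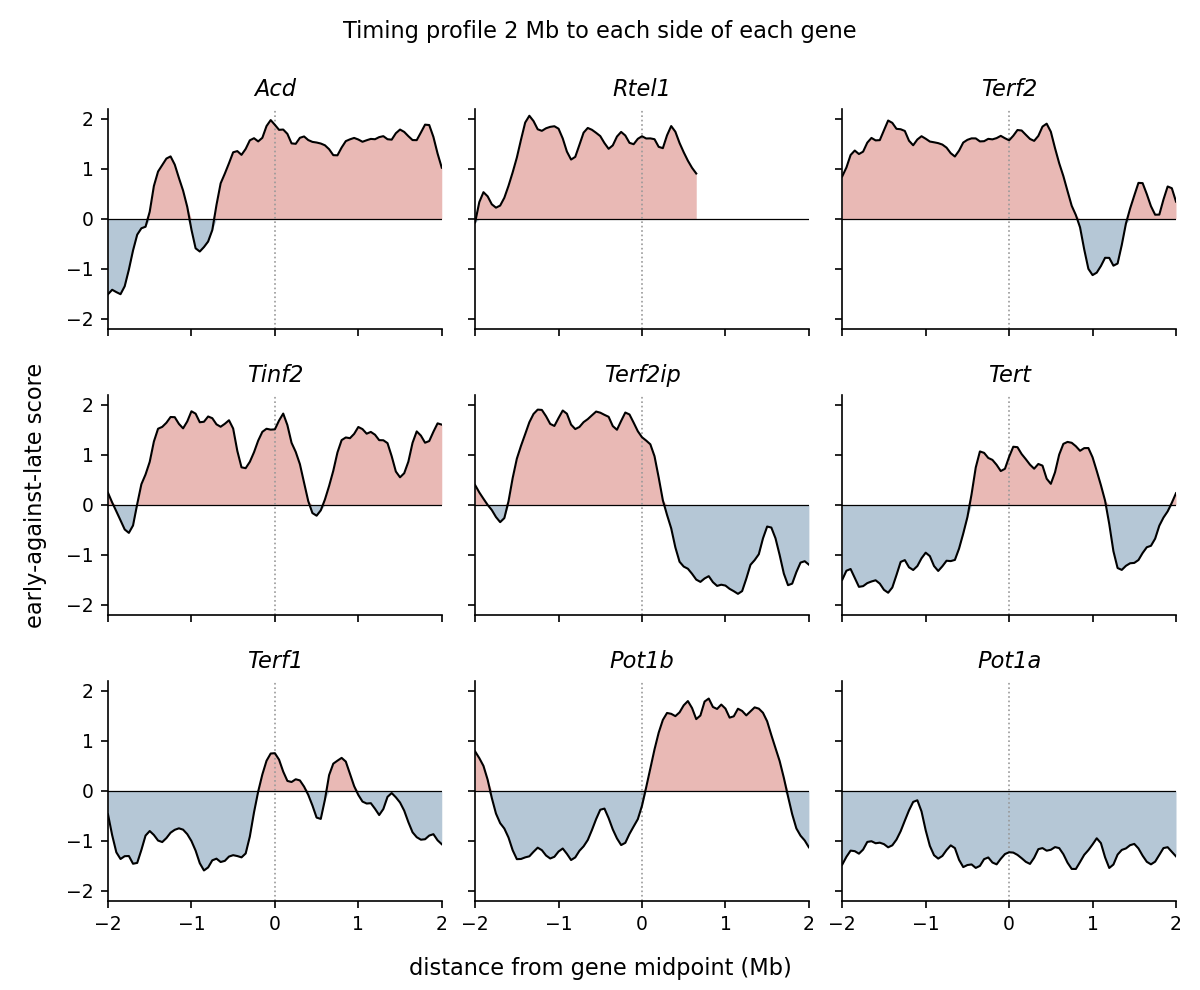
Score (vertical axis) against distance from the gene midpoint in Mb (horizontal axis) for each of the 9 genes, in steps of 50 kb, with early parts in red and late parts in blue. Genes are ordered from the highest to the lowest midpoint score: Pot1a has no position above 0 in its window, Pot1b stands at a change from late to early, and the profile of Rtel1 stops where the table of chromosome 2 ends.

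Terf1 and Terf2 encode the shelterin subunits that bind double-stranded telomere repeats, and their surroundings differed. Terf1 scored 0.76 (chromosome 1, 15805546 to 15844052), almost at the top of a small early island whose maximum was 0.77. The island was 0.569 Mb long, the shortest run holding any of the 9 genes, and held 5 protein-coding genes; with runs under 300 kb joined it was 1.16 Mb. Within 2 Mb only 23.8% of positions were above 0, and 8 of 18 neighbouring genes were. The highest neighbour was Eloc (0.64), a subunit gene of ubiquitin ligase complexes, and the lowest was the predicted gene Gm51415 (-1.33). The mean over positions within 500 kb of Terf1, a stretch that reaches past both ends of the island, was -0.11.

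Terf2, which guards chromosome ends against damage signalling and fusion, scored 1.57 (chromosome 8, 107069400 to 107096548, minus strand) on a flat early plateau. The score stayed between 1.57 and 1.79 within 150 kb and was 1.66 as a mean over 500 kb to each side. All 77 protein-coding neighbours within 2 Mb were above 0, from the transcription factor gene Zfhx3 at 0.67 to Ctcf, the insulator protein gene, at 1.97. Even so, 14.8% of positions there were not above 0, and the profile reached its lowest value of -1.13 at 1.003 Mb beyond Terf2. That late gap held the midpoint of none of these genes.

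Terf2ip encodes RAP1, the shelterin subunit carried by the Terf2 product, and it lay on the shoulder of an early domain. It scored 1.35 (chromosome 8, 112011359 to 112020528, plus strand), with a range of 1.01 to 1.81 within 150 kb. The early run was 1.86 Mb long (3.77 Mb with runs under 300 kb joined) and ended 0.259 Mb past Terf2ip. The profile fell by 2.15 within 300 kb, centred 0.28 Mb from the gene, and reached -1.78 at 1.15 Mb. The highest neighbour was the cytokine gene Il34 (1.91), on the early side, and the lowest was the metalloprotease gene Adamts18 (-1.62), on the late side. Of 41 neighbours 36 were above 0, against 51.6% of positions.

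Tinf2 and Acd encode TIN2 and TPP1, the bridge between the double-strand binding and single-strand binding parts of shelterin, and both scored early. Tinf2 scored 1.51 (chromosome 14, 55676208 to 55682159, minus strand), with 1.47 to 1.83 within 150 kb. Its window was the most gene-rich of the list, with 104 protein-coding neighbours, of which 97 were above 0. The lowest was the granzyme gene Gzmn (-0.22), in a narrow dip 0.491 Mb away, and the highest was the predicted gene Gm29776 (1.89). Tinf2 lay 0.406 Mb from the nearer end of its early run, at that dip. The dip ends the run only at the deposited zero point and without joining: the run of 2.06 Mb was 4.20 Mb with 0 at the autosomal median and 6.48 Mb with short runs joined.

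Acd had the highest score of the 9 genes, 1.88 (chromosome 8, 105698155 to 105701228, minus strand), above 98.7% of protein-coding genes. It stood beside a local peak of 1.98 whose top was 0.0515 Mb away, close to Ctcf (1.97), the highest of its 101 neighbours. The lowest neighbour, the carboxylesterase gene Ces2b (-0.59), lay 0.865 Mb off, in a dip on the lower-coordinate side. Acd and Terf2 are 1.38 Mb apart and share 1 early run of 2.93 Mb with 79 protein-coding genes (104975166 to 107902333). Their windows overlap, so they are not separate observations of timing. Terf2ip, 4.93 Mb from Terf2 on the same chromosome, lay in another run.

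Pot1a, which represses damage signalling at single-stranded telomere DNA, was the latest gene of the list and lay deep in late DNA. It scored -1.23 (chromosome 6, 25743940 to 25809277, minus strand), lower than all but 5.42% of protein-coding genes. Its lower-coordinate and higher-coordinate ends had -1.25 and -1.23, and the mean within 500 kb was -1.35. None of the 578 positions within 2 Mb was above 0 (0 positions), and the highest of them was -0.17. Such a window was found for 323 protein-coding genes, or 1.52%. This rests on the deposited zero point, since 3.11% of the positions lay above the autosomal median. All 14 neighbours were below 0, from Gpr37, a brain receptor gene, at -1.35 to Wasl, an actin regulator gene, at -0.20. The late run was 5.25 Mb long, from 23084713 to 28334538, with 21 protein-coding genes, and Pot1a lay 2.56 Mb from its nearer end, farther from an end than any other gene of the list. The length depends on how runs are drawn, being 3.56 Mb with 0 at the autosomal median and 22.7 Mb with runs under 300 kb joined.

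Pot1b, known for limiting the trimming of the strand that ends 5′ at telomeres, lay on a timing transition. It scored -0.30 at its midpoint (chromosome 17, 55651190 to 55712647, minus strand), -0.49 at the lower-coordinate end of the gene and -0.09 at the start site. The change of sign came 0.04 Mb past the midpoint, and the profile rose by 2.00 within 300 kb centred 0.11 Mb away. Within 150 kb the score ran from -0.85 to 0.79, with a mean of 0.00087. Of 71 protein-coding neighbours 65 were above 0, from Slc5a7, the choline transporter gene, at -1.33 to Ptprs, a receptor phosphatase gene, at 1.82. The late run behind Pot1b was 1.86 Mb long but held only 5 protein-coding genes. Only 31 positions lay within 150 kb of Pot1b, against 41 to 53 for the other 8 genes, so fewer values stand behind its score. When scores were counted from the median of all autosomal positions, -0.30, Pot1b was at 0.0073, and 8 of the 9 genes were then above 0 against 78.5% of protein-coding genes.

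**Figure D3:**
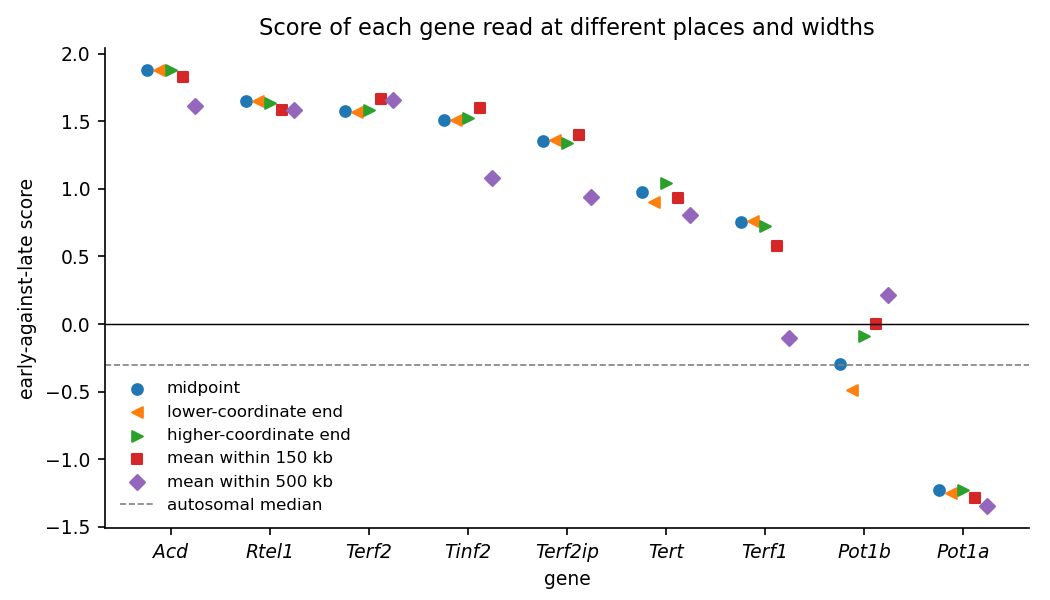
Score of each gene (vertical axis) read at the midpoint, at both gene ends, and as a mean within 150 and 500 kb of the midpoint; markers of a gene are set side by side for legibility. Acd, Rtel1, Terf2, Tinf2, Terf2ip and Tert stay above 0 and Pot1a below 0 in all 5 readings, while Terf1 and Pot1b do not keep 1 sign.

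Rtel1, whose helicase opens telomere loops and knotted DNA, was itself the gene nearest to a chromosome end. Its midpoint was 0.657 Mb from the last position of the table on chromosome 2, and the other 8 genes lay 17.2 Mb or more from theirs. At the other end of the chromosomes the closest gene was Terf1, 12.8 Mb from the first position of chromosome 1. Rtel1 scored 1.65 (181319711 to 181356616, plus strand), with 1.48 to 1.65 within 150 kb. The window on the distal side was therefore cut short, and 99.5% of its 439 positions were above 0. All 62 neighbours were above 0, from the cadherin gene Cdh4 at 0.36 to Lsm14b, an RNA-binding protein gene, at 1.99. The early run ran 2.65 Mb up to the last position, so its true length is at least that.

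The windows of 2 Mb to each side held positions of both signs for 8 of the 9 genes, Pot1a being the exception. The share of all protein-coding genes with such mixed windows was not computed, so this count does not set the list apart. Around Rtel1 the late part was only 0.456% of positions, and with 0 at the autosomal median all positions around Rtel1 (100%) and 3.11% of those around Pot1a were above it. The median share of positions above 0 was 51.6% for the 9 genes and 64.1% for all protein-coding genes (quartiles 40.4 and 86.5%). The median run was 2.06 Mb, against 2.25 Mb for all, and the median distance to the nearer end of the run was 0.464 Mb for the 9 genes and 0.463 Mb for all. Within 250 kb of an end of their run were 2 of the 9 genes, Terf1 and Pot1b, and 31.4% of protein-coding genes. The medians of run length and of distance to the run end were near those of protein-coding genes at large. The list as a whole thus did not lie unusually close to or far from the ends of runs. Such an end is not always a change of sign, since runs also end at gaps or, as for Rtel1, at the last position. Its median share of positions above 0 was lower than that of all genes, but within their quartiles.

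Other genes of telomere maintenance were also mostly early, as protein-coding genes at large were. Of 45 listed genes 43 had a score. Above 0 were 35 of them (81.4%), near the background of 73.5%, so this share does not set them apart. Their median was 1.32, against 1.35 for the 9 genes and 1.02 for all. As means within 500 kb the median of these genes was 0.84. Among genes of the telomerase RNA and its assembly 12 of 13 were above 0, beside the same background of 73.5%. Terc, the telomerase RNA itself, scored 1.63, Wrap53, which guides the enzyme to Cajal bodies, was the highest at 1.91, and Naf1, an assembly factor, was the lowest at -0.51. The CST complex, which helps to fill in the complementary strand, had all 3 genes early, from Stn1 (1.55) to Ctc1 (1.82). With a background of 73.5%, a count of 3 genes does not set this complex apart.

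Of the 12 genes for end processing and repair at telomeres 10 were above 0, near the background of 73.5%, led by the nuclease scaffold gene Slx4 (1.73). The helicase gene Wrn (-0.053) and Nbn (-0.00072), of the complex that senses breaks, lay so close to 0 that their side is not resolved. Wrn had 0.14 and 0.22 at its gene ends. Exo1, counted among those above 0, was as close at 0.059, with 0.006 at its lower-coordinate end, and is not resolved either. Among 6 regulators of shelterin 4 were early, again near that background, with the telomere-binding zinc finger gene Zbtb48 highest (1.83). The tankyrase gene Tnks (-0.35) and the ubiquitin ligase gene Fbxo4 (-0.39), both of which act on the Terf1 product, were below 0. Tnks was close to it at -0.011 at its lower-coordinate end, so its side is not resolved either. The 4 genes that fasten telomeres to the nuclear envelope in meiosis were all early, from Terb2 (1.16) to Majin (1.80). With a background of 73.5%, a count of 4 genes does not set them apart.

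The group for telomere chromatin and lengthening in stem cells was divided. The chromatin genes Atrx (1.07) and Daxx (1.61) were early. The clustered genes Zscan4c (-0.59), Zscan4d (-0.89) and Zscan4f (-0.31), known for brief bursts of expression in stem cells, were below 0. With 0 at the autosomal median Zscan4f was at -0.0077, so its side is not resolved. The cluster is covered thinly, with the nearest position 27.3 kb from Zscan4c and 46.2 kb from Zscan4f, and its genes share their surroundings. Tcstv1 and Tcstv3 had no position within 100 kb.

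**Figure D4:**
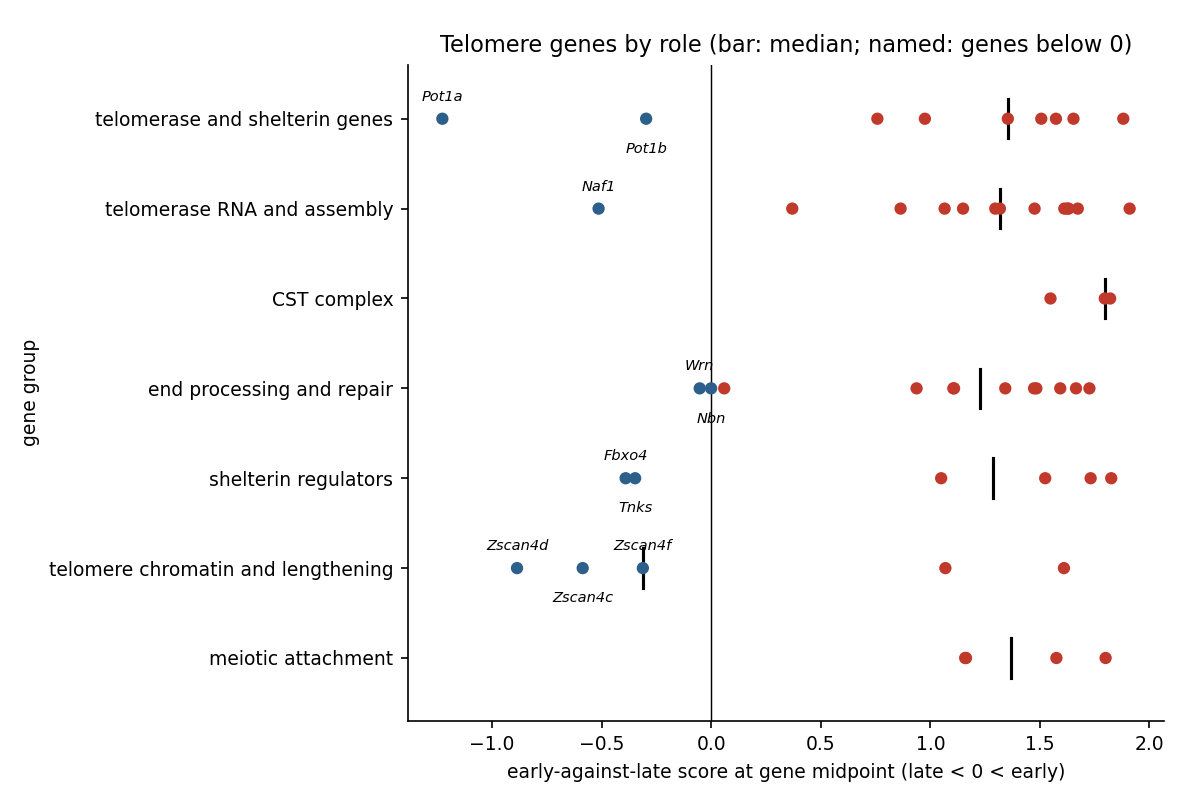
Score at the gene midpoint (horizontal axis) for the telomerase and shelterin genes and for 6 groups of other telomere genes (rows); each point is a gene, red above 0 and blue below, and the black bar is the median of the row. Genes below 0 are named, and Pot1a at -1.23 is the lowest of all 52 genes shown.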

How the data were processed

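The authors aligned reads to mm10 with Bowtie2, per the submitters' processing notes, and deposited 1 score per position for the pair of libraries, smoothed over 300 kb, per the name of the deposited table. Read counting, treatment of repeated sequence, scaling between libraries, log base and zero point are not stated in the labels or the file. The table held 384798 positions, of which 4 had no value and were dropped. No per-sample column went unused (0). Gene places came from the RefSeq table of GRCm38.p6, whose chromosomes are those of mm10, and 348 genes of scaffolds were left out. Of 21774 protein-coding genes 21225 had a position within 100 kb of their midpoint. Exon structure was not analysed here.

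A run was an unbroken stretch of positions of one sign, ended also by gaps over 300 kb. Local ranges used positions within 150 kb, and surroundings those within 2 Mb. The steepest change was the largest difference between places 300 kb apart. With 1 library per fraction no test was made. The members and lists were chosen with earlier results of these data known. Genes named were all members, for each the lowest and highest protein-coding neighbour within 2 Mb, and of each role group the highest, the lowest and all below 0. Terc and Exo1 were added after their values were seen. CpG counts, the start sites and the promoters shown were also chosen after the data were seen, and alternatives covered the zero point, the place and width of reading, and the split. Scripts ran in Python 3.11.15 with numpy 2.4.6 and pandas 2.3.3, and the search for runs and nearest positions was tested on simulated data.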

Additional observations from a re-analysis of the deposited data

How the results depend on the processing

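The zero point of the score is unknown, and it decides the side of Pot1b. With 0 at the autosomal median Pot1b was at 0.0073 instead of -0.30, the median of the 9 genes was 1.66 and that of the other telomere genes 1.62. The width of reading decided Pot1b and Terf1: as a mean within 150 kb Pot1b was at 0.00087, as a mean within 500 kb it was at 0.21, and Terf1 was then at -0.11. The 500 kb mean lowered the median of the 9 genes from 1.35 to 0.94 and that of the other telomere genes to 0.84. The mean over genes in place of the median was 0.91 for the 9 genes and 1.05 for the other telomere genes. With Acd and Terf2 as 1 unit the median of the list was 1.16. With runs shorter than 300 kb joined into their surroundings, the median run holding the 9 genes was 3.71 Mb. With windows of 1 Mb to each side, the median share of positions above 0 was 73.1%, instead of 51.6% with 2 Mb. The share for all protein-coding genes was computed with 2 Mb only, so the 73.1% has no background beside it. The count of the 9 genes above 0 ranged from 6 of 8 (Acd and Terf2 as 1 unit, or at start sites without Terf1) to 8 of 9 over these alternatives. No paired analysis was possible because each fraction had 1 library, and no library could be left out. The depth is unknown, and uneven coverage from amplification was not tested.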

Other observations

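The profiles most like those of the latest and the earliest gene were found by the root mean square difference of the score at 81 offsets within 2 Mb, over genes at least 4 Mb away or on another chromosome. For Pot1a, of 20224 genes compared, the closest were Nova1, a neuronal splicing factor gene on chromosome 12 (difference 0.223, score -1.25), Spertl on chromosome 14 (0.256, score -1.43) and the collagen-modifying enzyme gene Plod2 on chromosome 9 (0.257, score -1.23). The median difference over all genes compared was 1.80. For Acd, of 20164 genes, the closest were the kinase gene Mast2 and its neighbour Pik3r3 on chromosome 4 (0.333 and 0.350) and Cd5l on chromosome 3 (0.467), with a median over all of 1.49. These values describe 1 pair of libraries over windows that were already smoothed.

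The telomere repeat unit TTAGGG was searched on both strands in the 250 bases before each start site. It was found in 1 of the 8 promoters of the list, that of Pot1b, at 125 bases before the start, and in 9.30% of the 17030 protein-coding promoters. A match of 6 letters is a description of the sequence and not evidence of binding.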
